A study of Caenorhabditis elegans with 2 samples.

Results

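The genes of 3 families of transcription factors, T-box, homeobox and basic helix-loop-helix (bHLH), were examined as possible targets of the T-box protein TBX-7 in late embryos of Caenorhabditis elegans. Members were the protein-coding genes whose symbols begin with tbx-, ceh- or hlh-, with the T-box genes mab-9 and mls-1 added. These were 109 of 19973 protein-coding genes on the nuclear chromosomes of WBcel235: 21 T-box, 63 ceh and 25 hlh genes. They carry 108 symbols, because 2 T-box genes share the symbol tbx-30. The symbols do not cover the families in full, so homeobox and bHLH genes with other names were described apart. The remaining 19864 protein-coding genes served as background.

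Chromatin immunoprecipitation and sequencing was done on whole hermaphrodites of strain OP311, a stable transgenic line that expresses TBX-7 with a C-terminal GFP and FLAG tag, with an antibody to GFP. The labels' antibody entry reads tbx-7, taken here as the tagged protein. Late embryos were taken 3 h after synchronization by egg bleaching, and 2 biological replicates formed the single group, so no condition was compared with another. In whole embryos, binding in few cells cannot be told apart from weak binding in many, and all samples came from this 1 line.

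T-box proteins bind DNA through a conserved T domain and act in mesoderm and organ formation in many animals. Homeodomain proteins pattern the body axis and fix the identity of neurons and muscles. Proteins with a bHLH domain pair with each other and bind E-box sequences to set muscle and neuron fate. In the nematode embryo such factors act in lineage-specific cascades, in which the gene of one factor is often switched on by another.

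A summit is the position that a peak list marks within each peak. In the permissive lists it is the middle of nearly all peaks, so distances of a few bp from a window edge should be read with care. Summits were sought in 3 windows of each gene: the promoter (from 1000 bp before the annotated gene start to 200 bp after it), the gene body, and the 5 kb upstream, which includes the upstream part of the promoter. The 4 peak lists were the authors' final list of 690 peaks, kept by irreproducible discovery rate (IDR), the permissive pooled list of 8759 peaks made before that step, and the permissive lists of replicate 1 (16060 peaks) and replicate 2 (9840 peaks). Signal is the authors' own value per peak, on the scale of their caller and set within a list. It ran from 85.97 to 1661 in the IDR list and from 32.6 in the pooled list, where the highest signal outside the IDR list was 85.93. Peak lists give no read totals, so depth is unknown here.

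No member had an IDR summit in its promoter: 0 of 109, against 3.14% of the other genes. With 3 counts taken as the limit, a 0 leaves room for a share of 2.75%, and the exact 95% binomial interval reaches 3.33%, which includes the background share. By family, the same limit was 14.3% for the 21 T-box genes, 4.76% for the 63 ceh genes and 12% for the 25 hlh genes. Gene bodies held an IDR summit in 0 of 109 members, against 0.921% of the other genes. The 5 kb upstream held 1 in 3 of 109 members (2.75%, exact 95% interval 0.571 to 7.83%), against 6.02% of the other genes. These 3 genes were ceh-21, ceh-39 and hlh-27. All intervals and limits cover counting error only, and genes are not replicates.

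The permissive lists gave member promoters about the same share as other promoters. The pooled list had a summit in the promoter of 18 of 109 members (16.5%, exact 95% interval 10.1 to 24.8%), against 15.8% of the other genes. The list of replicate 1 had one in 28 of 109 (25.7%), against 24.7%, and that of replicate 2 in 21 of 109 (19.3%), against 16.3%. Both replicate lists had one, not always at the same place, in 11 members (10.1%), against 10.6%. With the replicate summits within 100 bp of each other it was 8 members (7.34%), against 7.80%. Each of these shares is near its background and is therefore not a result about the members. In gene bodies the pooled share was 21 of 109 (19.3%), against 18.1%, with 30.3% of members against 30.4% in replicate 1 and 22.9% against 21.2% in replicate 2. Both lists had one in 15 members (13.8%), against 13.2%. In the 5 kb upstream it was 35 of 109 (32.1%), against 36.2%, with 54.1% against 54.5% in replicate 1 and 41.3% against 39.6% in replicate 2. Both lists had one in 33 members (30.3%), against 29.9%.

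**Figure D1:**
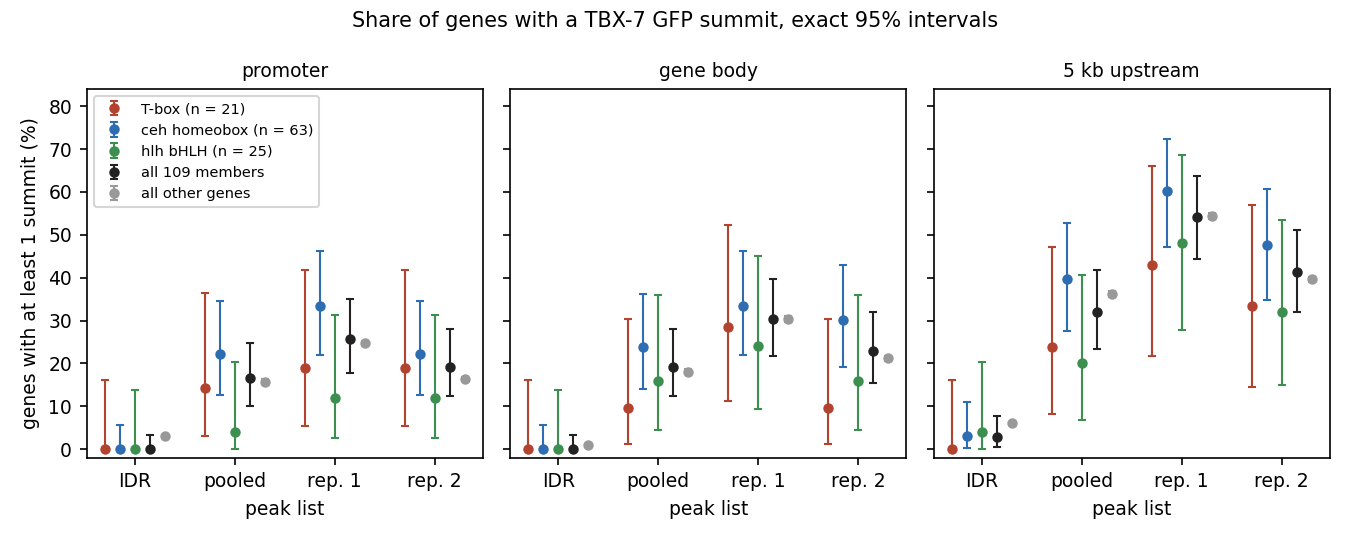
Percent of genes with at least 1 summit in each window (panels) and each peak list (horizontal axis), for T-box, ceh and hlh genes, all 109 members and all other genes. Points are shares and bars exact 95% intervals; member intervals include the grey background point in all 12 pairs of window and list.

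The IDR list holds the 690 strongest pooled peaks, so a promoter without an IDR summit has only pooled signals below 85.97. Among genes with a pooled summit in the promoter, the strongest signal had a median of 43.7 over the 18 members (range 33.6 to 77.5) and of 46.4 over the 3135 other genes, with quartiles of 39.4 and 51.2 for members and of 37.6 and 70.4 for the others. At a −log10 q of at least 2, the promoter of 1 member held a summit, that of ceh-43, a share of 0.917% against 3.73% of the other genes. In the 5 kb upstream 4 members had one (3.67%), against 7.23%. No test of these differences was made, since the members were chosen with earlier results of these data known.

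By family, pooled promoter summits were listed for 3 of 21 T-box genes (14.3%), 14 of 63 ceh genes (22.2%) and 1 of 25 hlh genes (4%), and their exact 95% intervals, 3.05 to 36.3%, 12.7 to 34.5% and 0.101 to 20.4%, overlap. Summits per Mb of merged promoter window were 119 for T-box, 185 for ceh and 33.9 for hlh genes, against 129 for other genes, and over all members 138. In the IDR list the density was 0 for members and 20.3 per Mb for other genes. Of the 18 member promoter summits in the pooled list, 10 were matched within 100 bp in each of the replicates (55.6%), against 45.3% of those at other genes. Another 5 were matched in replicate 1 only, 2 in replicate 2 only and 1 in neither. Of member body summits 5 of 25 were matched in each replicate (20%), against 30.6%, and in the 5 kb upstream 22 of 48 (45.8%), against 38.2%. For T-box genes it was 0 of 3 in promoters, 0 of 2 in gene bodies and 0 of 5 in the 5 kb upstream.

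The sequences under the summits described next are shown so that the T-box core can be looked for at the member genes that carry the peaks. Each runs 50 bp to either side of a summit, on the plus strand of ce11, from RefSeq WBcel235, with the T-box core GGTGT, or its complement on the other strand, in capitals. Windows that touch an annotated untranslated region are not shown. The first pair are IDR peaks and the others are promoter peaks of the pooled list, among the highest of each family.
ceh-39 upstream (chrX:1858720-1858820): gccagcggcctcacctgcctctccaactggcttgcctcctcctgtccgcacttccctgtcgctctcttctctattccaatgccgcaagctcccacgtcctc
hlh-27 upstream (chrII:5543629-5543729): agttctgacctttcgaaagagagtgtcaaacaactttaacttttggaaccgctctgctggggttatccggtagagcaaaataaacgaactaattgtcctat
tbx-2 (chrIII:5136406-5136506): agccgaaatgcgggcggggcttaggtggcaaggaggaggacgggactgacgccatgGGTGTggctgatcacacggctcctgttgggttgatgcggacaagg
tbx-38 (chrIII:11786190-11786290): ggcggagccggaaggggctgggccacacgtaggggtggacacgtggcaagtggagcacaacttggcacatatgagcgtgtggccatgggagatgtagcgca
tbx-34 (chrIII:11219077-11219177): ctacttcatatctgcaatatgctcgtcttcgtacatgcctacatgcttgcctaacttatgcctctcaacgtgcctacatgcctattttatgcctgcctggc
ceh-43 (chrIII:4450878-4450978): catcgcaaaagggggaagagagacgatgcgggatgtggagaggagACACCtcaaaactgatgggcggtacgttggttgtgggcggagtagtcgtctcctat
ceh-32 (chrV:11706350-11706450): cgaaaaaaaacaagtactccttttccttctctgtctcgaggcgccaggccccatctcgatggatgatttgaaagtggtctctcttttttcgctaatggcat
ceh-92 (chrIII:11581096-11581196): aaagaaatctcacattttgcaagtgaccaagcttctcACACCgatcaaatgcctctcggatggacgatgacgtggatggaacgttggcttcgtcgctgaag
ceh-39 promoter (chrX:1856278-1856378): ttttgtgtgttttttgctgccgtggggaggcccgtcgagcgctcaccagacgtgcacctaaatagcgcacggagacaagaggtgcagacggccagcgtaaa
hlh-11 (chrIII:9619352-9619452): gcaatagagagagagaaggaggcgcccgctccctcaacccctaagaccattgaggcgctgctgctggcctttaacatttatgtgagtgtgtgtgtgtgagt

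Of the 18 member promoter windows, 3 held the core GGTGT on either strand (16.7%), those of tbx-2, ceh-43 and ceh-92, against 14.8% of the 2752 windows at other promoters. The longer word GGTGTGA, which contains the core, occurred at ceh-92 only, 1 of 18, against 20 of 2752 (0.727%). The full word AGGTGTGA occurred in 0 of 18, against 4 of 2752 (0.145%), and in 0 of the 690 IDR windows. The E-box CANNTG occurred in 4 of 18 member windows (22.2%), against 34.0%, and the window of hlh-11 had none. At body summits it occurred in 10 of 25 (40%), against 33.8%, and at summits in the 5 kb upstream in 18 of 48 (37.5%), against 34.1%. A match is a run of letters only, and a missing match says nothing about the factor. Neither window of the IDR peaks printed above held GGTGT.

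Among ceh genes the highest promoter signal was at ceh-43, which encodes a Distal-less homologue. Its summit lay 985 bp upstream, with a signal of 77.5 in the pooled list, 31.7 in replicate 1 and 46.5 in replicate 2. It ranked 823 of 8759, with a −log10 q of 2.10, and a second pooled summit (64.3) lay 1184 bp upstream. The IDR list ended at rank 690, so this was the member promoter nearest to it. Among the 690 strongest peaks of replicate 2 alone, ceh-43 was the only member with a promoter summit.

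Next came ceh-38, a gene of the ONECUT homeobox class, with a summit 10 bp downstream of its start and inside the promoter of its neighbour malt-1. Its signal was 62.1 in the pooled list, 34.2 in replicate 1 and 24.0 in replicate 2. The gene ceh-32, a homologue of vertebrate Six3 and Six6, had a signal of 58.9 in the pooled list, 21.3 in replicate 1 and 36.3 in replicate 2. That summit lay 1000 bp upstream, the last position inside the promoter window. The gene ceh-92 had 48.7, 27.9 and 21.5 in the same 3 lists, at 454 bp upstream and inside an exon of Y66D12A.6. The gene ceh-13, the nematode labial homologue and a Hox gene, had 47.5 in the pooled list and 21.9 in replicate 1, and replicate 2 had no match.

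These promoter peaks were thus matched within 100 bp in both replicates for ceh-43, ceh-38, ceh-32 and ceh-92 and in 1 replicate for ceh-13. For ceh-32 both matches lay beyond the edge of the promoter window. Inside that window replicate 1 listed a signal of 19.4 and replicate 2 listed no summit. The ONECUT gene ceh-39, which acts in the X chromosome count that decides sex, had a promoter summit 156 bp upstream with signals of 47.5 (pooled), 33.4 (replicate 1) and 27.0 (replicate 2). Signals of the remaining 8 ceh promoters ran from 33.6 to 42.6, led by ceh-88 (42.6) and ceh-89 (42.02). Both were matched within 100 bp in each replicate, but for ceh-88 the matches (15.3 and 23.9) lay in the gene body, outside the promoter window. The weakest of the 8, ceh-33, ranked 8013 and was matched in neither replicate.

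The only hlh gene with a pooled promoter summit was hlh-11, which encodes the homologue of the vertebrate factor AP-4. The summit lay 309 bp upstream in intergenic sequence, with a signal of 71.8 in the pooled list (rank 939, −log10 q 1.91), 34.0 in replicate 1 and 37.3 in replicate 2. The nearest IDR summit was 145901 bp from its start. The promoters of hlh-1 (the MyoD homologue), hlh-2 (the E protein) and hlh-8 (the Twist homologue), named after their values were seen, had no pooled summit. For hlh-1 the replicate 2 list had a promoter signal of 21.03, and a pooled summit of 45.1 lay 2156 bp upstream. For hlh-2 a pooled summit of 58.8 lay 1113 bp upstream, matched in replicate 1 only. For hlh-8 none of the 3 windows held a summit in any list.

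**Figure D2:**
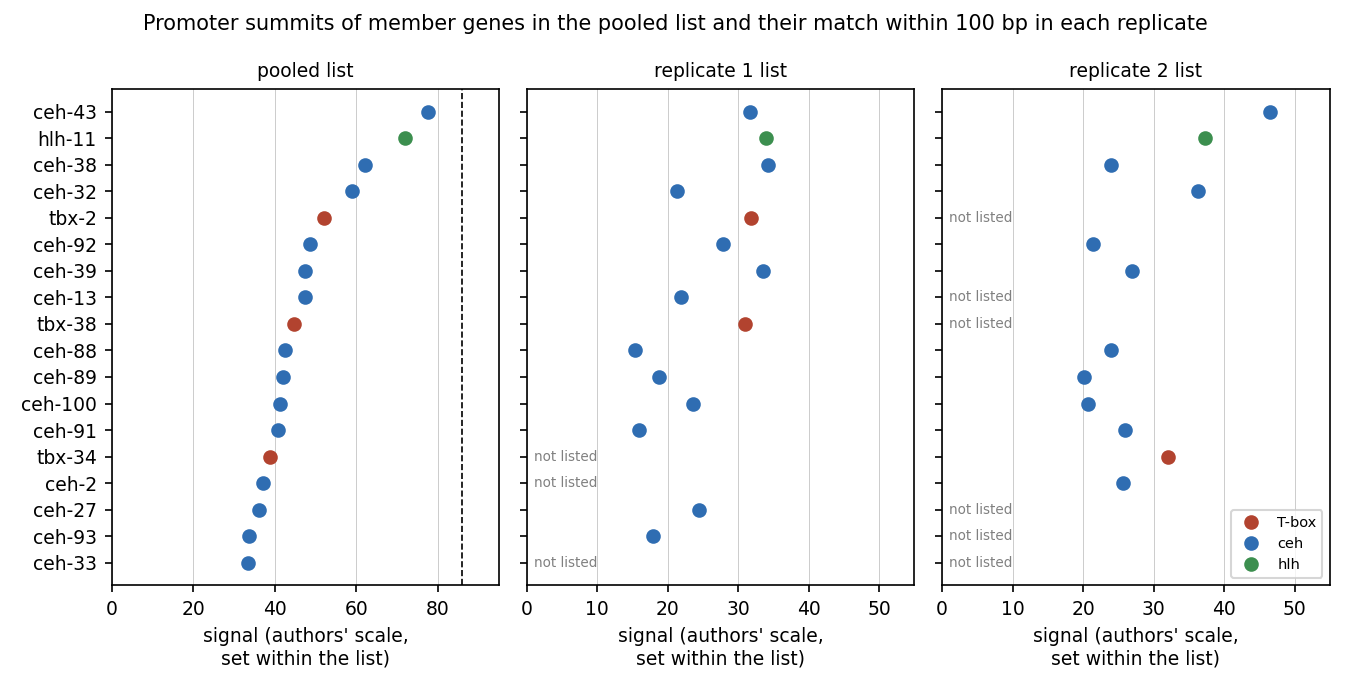
Signal of the 18 member promoter summits of the pooled list (left) and of the strongest summit within 100 bp in each replicate list (middle and right), by gene; colours give the family and the dashed line the lowest signal of the IDR list, 85.97. All 18 lie left of that line, as they must without an IDR summit, and scales differ between lists.

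Of the T-box genes, tbx-2, tbx-38 and tbx-34 had a pooled promoter summit, and each was matched in 1 replicate only. Their −log10 q was 0.628, 0.309 and 0.129 in that order, all below the threshold of 2. The gene tbx-2, of the Tbx2 class and needed for anterior pharyngeal muscle, had a signal of 52.0 at 160 bp upstream, with 31.8 in replicate 1 and no match in replicate 2. The gene tbx-38, which acts redundantly with tbx-37 in mesoderm made by descendants of the anterior blastomere, had 44.8 at 179 bp upstream, with 31.0 in replicate 1 and no match in replicate 2. The gene tbx-34 had 38.9 at 877 bp upstream, inside an intron of wht-8, with no match in replicate 1 and 32.1 in replicate 2. For tbx-37 each replicate list had a promoter summit (14.6 in replicate 1 and 20.9 in replicate 2) but the pooled list had none. These were not within 100 bp of each other, and both were near the lowest signals of their lists (14.1 and 19.4). Outside promoters, pooled summits of 57.5 and 34.5 lay 3761 bp upstream of tbx-43 and 3681 bp upstream of mab-9, which acts in hindgut cells of the male. Summits of 42.1 and 32.6 lay in exons of tbx-8 and tbx-33. The −log10 q of these summits outside promoters ran from 0.0188 (tbx-33) to 0.909 (tbx-43).

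Of the 3 families, the T-box genes had the largest median distance to an IDR peak. The median distance from the start to the nearest IDR summit was 110080 bp over the 21 T-box genes, 48950 bp over the ceh genes and 57722 bp over the hlh genes, against 57712 bp over the other genes, and 60503 bp over all members. Within 10000 bp lay an IDR summit for 13 of 109 members (11.9%), against 13.7% of the other genes. In the pooled list the medians were 4367 bp for members, 5188 bp for T-box genes and 4430 bp for the others. For IDR summits the quartiles were 59156 and 175004 bp over T-box genes and 21636 and 121727 bp over the other genes. Over 269 nuclear hormone receptor genes the median to an IDR summit was 96608 bp, with quartiles of 43259 and 199250 bp. In the other factor lists described below it was 49931 bp (homeobox), 60754 bp (bHLH) and 55044 bp (other developmental factors). Neighbouring T-box genes, such as tbx-39 and tbx-40, lie in the same stretch without an IDR summit, so their distances are not independent. The nearest T-box genes were tbx-41 (6476 bp), tbx-35, which specifies the MS blastomere (13450 bp), and tbx-2 (27290 bp). The nearest hlh genes were hlh-27 (3466 bp), hlh-30, the TFEB homologue (7479 bp), and hlh-34 (8092 bp). The nearest ceh genes were ceh-21 (1002 bp), ceh-39 (2434 bp) and ceh-10 (4108 bp). The distances of ceh-21 and ceh-39 are to the same summit, which lies downstream of ceh-39. That of tbx-41 is to the summit upstream of ceh-39 near a tRNA gene, described below.

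**Figure D3:**
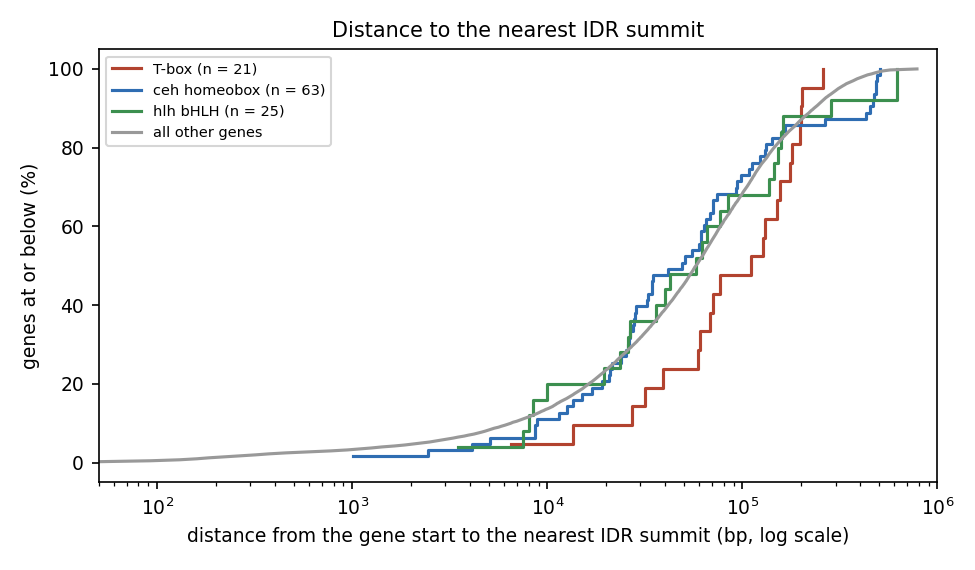
Cumulative percent of T-box, ceh, hlh and all other genes (vertical axis) by distance from the gene start to the nearest IDR summit (horizontal axis, log scale). The T-box curve lies to the right of the others over most of its range, with a median of 110080 bp.

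The tagged gene itself, tbx-7, had no summit in any window of any list. Its start lay in a stretch of 71.7 kb on chromosome III (6002248 to 6073946 in ce11) without a summit of any of the 4 lists, the longest such stretch on that chromosome. The median stretch around the start of a protein-coding gene was 8122 bp, and 0.451% of genes start in one as long. The stretch held 11 protein-coding genes, and tbx-11 was the other member in it. Of the 31-base words in the tbx-7 promoter, 100% occur once in the genome, but the stretch as a whole was not scored. Whether peaks around the tagged locus were left out before deposit is not stated in the labels. The cause was not tested. Without tbx-7 and tbx-11, an alternative added after the data were seen, the promoter counts were 0 of 107 in the IDR list and 18 of 107 (16.8%) in the pooled list.

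Both IDR peaks upstream of ceh genes lay in a cluster of 3 ONECUT genes on chromosome X, where ceh-39, T26C11.9, ceh-21 and ceh-41 follow each other on the same strand. The peak at chrX:1853516-1853959 had its summit 1002 bp upstream of ceh-21, 2 bp beyond its promoter window, and 111 bp downstream of the start of T26C11.9, in an exon of that gene. It had a signal of 114 in the pooled and IDR lists (rank 439 of 690), 61.99 in replicate 1 and 52.1 in replicate 2. The same summit lay 5063 bp upstream of ceh-41, just beyond the 5 kb window. The peak at chrX:1858548-1858991 had its summit 2598 bp upstream of ceh-39 and within 200 bp of a tRNA gene, with a signal of 114 (rank 446), 57.3 in replicate 1 and 57.1 in replicate 2. The intron of ceh-21 held a pooled summit of 41.7, which replicate 2 alone listed.

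The peak upstream of hlh-27, a gene of the REF-1 group of bHLH factors, was also next to a small RNA gene. Its summit lay 3466 bp upstream of hlh-27 at chrII:5543457-5543900, within 200 bp of the spliced leader RNA gene sls-2.2. The signal was 105 in the IDR list (rank 504) and 72.0 in replicate 1, and replicate 2 had no summit within 100 bp. A second pooled summit beside the same RNA gene, 3665 bp upstream, had a signal of 49.1, with 16.6 in replicate 1 and 33.2 in replicate 2. With summits near tRNA, small nucleolar, small nuclear and ribosomal RNA genes left out, ceh-21 was the only member with an IDR summit in the 5 kb upstream, a share of 0.917% against 5.30% of the other genes. With the window stopped at the neighbouring gene, ceh-39 alone remained (0.917% against 3.24%).

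**Figure D4:**
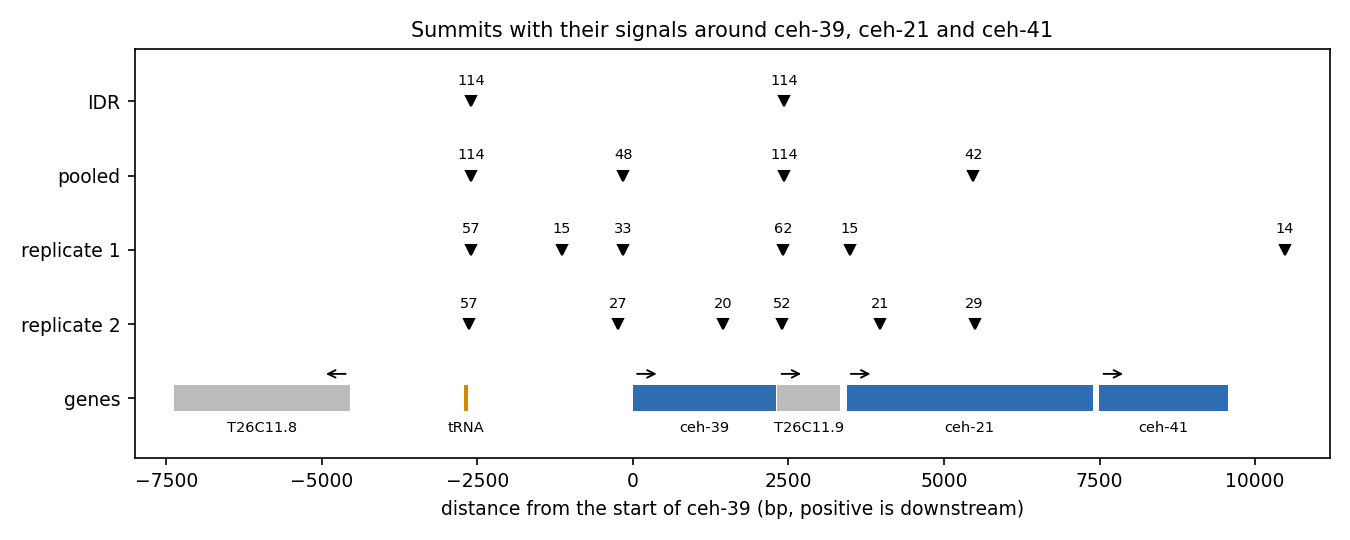
Summits (triangles, with signal) of the 4 lists and genes (bars, arrows for direction) by distance from the start of ceh-39 in bp. Member genes are blue; the 2 IDR summits lie at the tRNA gene upstream of ceh-39 and at the start of T26C11.9 between ceh-39 and ceh-21.

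**Figure D5:**
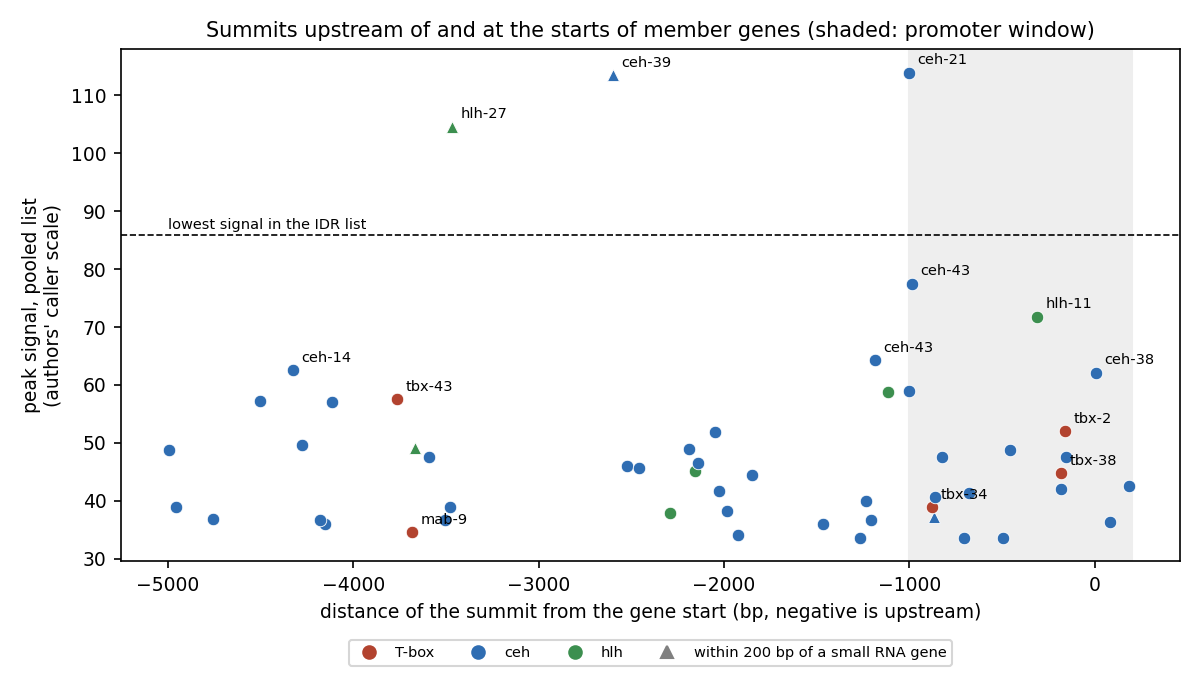
Signal in the pooled list (vertical axis) of each summit in the promoter or 5 kb upstream of a member, by distance from its start in bp (negative is upstream); the promoter is shaded and the dashed line is the lowest signal of the IDR list. Only the summits of ceh-21, ceh-39 and hlh-27 lie above the line, and those of ceh-39 and hlh-27 are near small RNA genes (triangles).

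Members stand in longer intergenic sequence than other genes. The median distance to the nearest protein-coding neighbour upstream was 1913 bp for members and 933 bp for the other genes, while median gene lengths were 1978 bp and 2027 bp. The background share itself varied with that distance. Among genes with a neighbour within 1 kb upstream, an IDR promoter summit was found in 0 of 35 members and in 4.41% of other genes. From 1 to 5 kb it was 0 of 51 members against 1.95%, and at 5 kb and more 0 of 23 against 1.27%. For pooled promoter summits the 3 classes gave 22.9%, 15.7% and 8.70% of members, against 18.6%, 12.7% and 12.8% of the others. Members were thus rarer (32.1% against 52.1%) in the class where IDR promoter summits were most frequent, and the part of this in the count of 0 was not tested.

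Chromosome and sequence uniqueness also varied. On X lay 24.8% of members, against 13.6% of the other genes, and there 1.74% of other genes had an IDR promoter summit, the lowest of the 6 chromosomes. On III, which held 11 of the 21 T-box genes, pooled promoter summits were listed for 8 of 22 members (36.4%), against 21.01% of the others there, and on V for 3 of 14 (21.4%), against 11.02%. On the other chromosomes the member share was the lower. It was 1 of 10 (10%) against 21.2% on I and 2 of 22 (9.09%) against 16.3% on II. On IV it was 1 of 14 (7.14%) against 14.4%, and on X 3 of 27 (11.1%) against 14.7%. All these counts by chromosome are small, and their differences were not tested. Promoters in which under 80% of 31-base words occur once in the genome numbered 8 of 109 members (7.34%), against 9.02% of the others. The 8 were both tbx-30 genes at 0%, hlh-28 at 25.7%, hlh-29 at 26.6%, ceh-84 at 58.6%, hlh-25 at 71.0%, hlh-27 at 71.3% and hlh-17 at 75.1%. A missing summit at these genes is uncertain. In an alternative added after the data were seen, among the 101 with more unique promoters the IDR count was also 0, against 3.23% of the other genes.

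Gene bodies of members held 25 pooled summits, or 74.3 per Mb, against 79.8 per Mb for other genes, and 13 of the 25 were in introns (52%, against 52.5%). The highest were in ceh-22, an NK-2 class gene of pharyngeal muscle (63.3 in the pooled list, 26.7 in replicate 1, 30.2 in replicate 2), in ceh-9 (62.8, 32.2 and 30.5), and in ceh-38 (the summit 10 bp downstream of its start). These 3 were picked out by their values. A body summit with a −log10 q of at least 2 was listed for 0 members, against 1.37% of the other genes. In all, 26 of 109 members (23.9%) had no summit of any list in any of the 3 windows, against 24.5% of the other genes. They included 8 T-box genes, among them mls-1 and tbx-7, 11 ceh genes and 7 hlh genes.

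Factor genes with other names included 1 with a high promoter peak. Of 39 homeobox genes with other symbols, 1 had an IDR promoter summit (2.56%, exact 95% interval 0.0649 to 13.5%), cux-7, with the summit 1 bp downstream of its start (chrIII:7520681-7521009). Its signal was 652, rank 4 of 690, with 363 in replicate 1 and 289 in replicate 2, against at most 114 within any member window. That summit also lies in the promoters of C07H6.2 and lig-4, so it cannot be assigned to cux-7 alone. Of 16 bHLH genes with other symbols, among them lin-32, cnd-1 and hnd-1, 0 had one, and the same held for 0 of 49 other developmental factor genes, such as the GATA and forkhead genes elt-2 and pha-4. Nuclear hormone receptor genes had 2 of 269 (0.743%), nhr-142 (signal 154) and nhr-255 (signal 99.7). The nhr-142 summit also lies in the promoter of F44E7.9, and the nhr-255 summit had no match in replicate 2. In the pooled list the promoter shares of these 4 lists were 17.9%, 25%, 20.4% and 9.29%, next to 16.5% for the members. In replicate 1 the promoter share of the other homeobox genes was 48.7% (exact 95% interval 32.4 to 65.2%), against 25.7% of the members and 24.7% of all genes outside the members, and in replicate 2 it was 20.5%, against 19.3% and 16.3%. Pooled gene body summits were listed for 46.2% of the other homeobox genes, 43.8% of the other bHLH genes, 44.9% of the other developmental factors and 17.8% of the nuclear hormone receptor genes, against 19.3% of the members and 18.1% of all genes outside the members. Gene lengths of these 4 lists were not compared, and the cause of these shares was not tested.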

How the data were processed

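Peaks of anti-GFP ChIP-seq were analysed in 2 replicates of 1 group. Per the metadata deposited with each sample, replicate lists were called on each alignment to ce11 against the same control, the pooled list on both alignments, with the IDR list made from them. The aligner, the caller, their versions and the read depth are not given in the sources used here. Column 7 holds the peak signal as deposited by the authors, column 9 the −log10 of a q-value as deposited by the authors, and column 10 the summit offset. In the permissive lists nearly all peaks have 1 fixed width, so their summit is the middle.

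Summits in ce11 were assigned to genes of Ensembl release 115 for WBcel235 (the same build) with Python 3.11.15, numpy 2.4.6 and scipy 1.17.1. The ce10 lists were not used. Shares carry exact 95% binomial intervals. No test was run. The members and lists were chosen with earlier results of these data known. Most genes were named by a rule: tbx-7, members with an IDR summit, T-box genes with a pooled promoter summit, the 8 strongest ceh and hlh promoters, the 3 members of each family nearest to an IDR summit, and bound genes of the other factor lists. Outside that rule, hlh-1, hlh-2, hlh-8, ceh-9, ceh-22, ceh-33 and ceh-41 were named after their values were seen. The same holds for mab-9, mls-1, tbx-8, tbx-11, tbx-33, tbx-37, tbx-39, tbx-40, tbx-43 and the genes of low sequence uniqueness. The genes lin-32, cnd-1, hnd-1, elt-2 and pha-4 were named as examples of their lists. Of 50 symbols written for other developmental factors, 49 were found. The window code was tested on simulated data, and 30 of 30 placed summits were recovered in each window. Alternatives covered the windows, transcript starts, thresholds, interval overlap, small RNA genes and single replicates.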

Additional observations from a re-analysis of the deposited data

How the results depend on the processing

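Member counts were recomputed under 40 alternatives, of which 24 kept them within 1.5 times of the main count or at 0. The IDR promoter count of 0 became 1 (ceh-21) with 2000 bp upstream and 500 bp downstream, and ranged from 0 to 1 (ceh-43) when the 690 strongest peaks of 1 replicate were used alone. The IDR count in the 5 kb upstream, 3, was 0 with the 345 strongest peaks (3.43% of other genes), 1 without summits near small RNA genes and 1 when the window stopped at the neighbouring gene. The pooled promoter count, 18, was 9 (8.26% against 10.6% of other genes) with 500 bp upstream and 100 bp downstream, and 1 at a −log10 q of at least 2. That threshold left 0 members in gene bodies, 4 in the 5 kb upstream and, in both replicate promoters, 0 in place of 11 (2.60% of other genes). Stopping at the neighbour gave 19 in place of 35 in the 5 kb upstream (17.4% against 17.3%). No pooled list was rebuilt: with 1 replicate left out, the other replicate's own list stood in, and counts ranged from 21 to 28 in promoters, 25 to 33 in gene bodies and 45 to 59 in the 5 kb upstream; these lists differ in length (16060 and 9840 peaks). The count in both replicate promoters was 6 (5.50% against 6.69%) with the narrower window and 22 (20.2% against 17.4%) with the wider. No paired analysis was possible because the design holds 1 group. Depth is unknown and weak binding below the callers' limits cannot be seen.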
